A study of Mus musculus with 17 samples.

Results

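Cholesterol synthesis in the mouse ovary was followed through 32 genes: the enzymes that carry acetyl-CoA through mevalonate and squalene to cholesterol, the SREBP transcription factors and their regulators, carriers of sterol within the cell, and a pair of fatty acid desaturases. A gene was taken up where the array annotation gave its symbol to a probe, and was represented by its brightest detected probe. 29 of the 32 genes had a probe and 27 had a detected one, among 12137 genes measured in all. Acat2, Hmgcs1 and Fdft1 were not analysed here, as no probe used here carried these symbols. Neither Ggps1 nor Mylip had a kept probe: no probe of Ggps1 was detected on any array, and Mylip probes were detected on at most 1.

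Total RNA from ovaries of 12 weeks old female mice of a FVB/N x C57/BL6 cross was hybridised as biotin-labelled cRNA to Illumina whole-genome bead arrays, which report the brightness of beads that each carry the probe of a single transcript. The 4 genotypes were wild type for both receptors (WT/WT, 4 arrays), an Fshr mutant named Fshr-CAM (Fshr-CAM/WT, 4 arrays), an Lhr null (WT/Lhr-/-, 4 arrays) and the Fshr mutant on the Lhr null (Fshr-CAM/Lhr-/-, 5 arrays). The single mutants are called Fshr-CAM and Lhr-null below, and the double mutant Fshr-CAM/Lhr-null. Fshr encodes the receptor for follicle-stimulating hormone, Lhr the receptor for luteinising hormone. What CAM stands for, and which promoter drives the mutant Fshr, are not given in the sources used here. The labels do not say that replicates came from separate animals, so the spread behind the p-values is that among these samples and may be technical.

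Mammalian cells build cholesterol from acetyl-CoA by way of mevalonate, isoprenoid diphosphates, squalene and lanosterol. When sterol in the endoplasmic reticulum runs low, the escort protein Scap carries SREBP precursors to the Golgi, where they are cut to release active transcription factors, and Insig proteins hold the complex back when sterol is plentiful. In the ovary cholesterol is the substrate of all steroid hormones, and theca, interstitial and luteal cells, which carry the luteinising hormone receptor, use much of it.

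SREBP factors act on promoters together with NF-Y, which binds the CCAAT box, and with Sp1, which binds GC boxes. The promoters of 22 of the 27 measured genes were in the RefSeq table for GRCm38.p6, and those of Fdps, Sqle, Fads1, Npc1 and Stard4 were not. The 250 bases before each annotated start site were searched on both strands for CCAAT, for GGGCGG, for TCACNCCAC, a sterol response element core, and for its shorter form CACNCCAC, which every match of the longer one contains. CCAAT was present before at least 1 start site of 19 of the 22 genes (86.4%), and of 14 of the 15 enzymes and scaffold proteins among them (93.3%), against 40.1% of the 9776 tested genes and 37.5% of all 27025 genes with an entry. GGGCGG was present in 21 of the 22 (95.5%), against 61.2% of tested genes and 35.4% of all genes. TCACNCCAC was found in 0 of the 22 and in 1.22% of all genes, and CACNCCAC in 1 of the 22 (Insig1) and in 6.05% of all genes. A match describes these letters only, and none of these assays measured binding.

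The 120 bases just outside the annotated gene are printed below for 6 enzymes whose transcripts fell in Lhr-null ovaries and for Lbr and Erg28, which did not fall there. Each reads from 5′ to 3′ on the gene's strand and ends at the base before the gene's first annotated base, with CCAAT or its reverse complement ATTGG in capitals. All positions are in GRCm38.p6.
Dhcr7, chr7:143823047-143823166, plus strand: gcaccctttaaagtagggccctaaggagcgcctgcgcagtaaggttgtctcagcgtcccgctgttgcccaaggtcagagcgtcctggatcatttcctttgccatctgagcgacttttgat
Hsd17b7, chr1:169969243-169969362, minus strand: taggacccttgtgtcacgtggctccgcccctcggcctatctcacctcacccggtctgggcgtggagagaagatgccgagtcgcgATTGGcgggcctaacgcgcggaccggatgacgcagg
Tm7sf2, chr19:6067851-6067970, minus strand: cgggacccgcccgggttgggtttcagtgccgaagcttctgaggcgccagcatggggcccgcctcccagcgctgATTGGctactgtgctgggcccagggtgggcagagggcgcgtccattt
Mvd, chr8:122443423-122443542, minus strand: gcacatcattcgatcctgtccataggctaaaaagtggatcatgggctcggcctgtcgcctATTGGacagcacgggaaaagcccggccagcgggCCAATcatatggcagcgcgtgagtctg
Sc5d, chr9:42264301-42264420, minus strand: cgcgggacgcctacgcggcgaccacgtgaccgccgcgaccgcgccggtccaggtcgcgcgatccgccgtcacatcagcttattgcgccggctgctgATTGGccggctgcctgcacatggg
Cyp51, chr5:4104698-4104817, minus strand: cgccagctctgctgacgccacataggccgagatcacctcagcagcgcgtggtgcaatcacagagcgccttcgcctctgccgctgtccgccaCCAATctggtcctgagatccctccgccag
Lbr, chr1:181842402-181842521, minus strand: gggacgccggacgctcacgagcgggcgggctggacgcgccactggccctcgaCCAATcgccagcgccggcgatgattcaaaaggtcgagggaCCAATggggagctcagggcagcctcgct
Erg28, chr12:85824894-85825013, minus strand: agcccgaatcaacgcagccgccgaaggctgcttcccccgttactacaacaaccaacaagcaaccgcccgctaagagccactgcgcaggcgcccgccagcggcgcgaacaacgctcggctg
The box was present in 5 of the 6 genes that fell and in Lbr, and absent from the stretches of Dhcr7 and Erg28. Its relation to the direction of change was not tested. Dhcr7 has 3 annotated start sites, and CCAAT lies before 1 of them, inside the gene and outside the stretch shown. Erg28, a scaffold protein counted here with the enzymes, was the 1 of these 15 genes without CCAAT in its 250 bases.

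Before the results, the arrays themselves need a description. Per array, 19366 to 22006 probes were detected (detection p under 0.05), and a probe was read from a median of 41 to 43 beads; the number of arrays limits the precision. Lhr-null replicate 1 carried pituitary hormone transcripts at a mean log2 signal of 13.73 over 7 markers (at most 4.58 on any other array) and correlated with the other arrays at 0.825 to 0.845, against 0.915 to 0.988 among the rest, so the values below come from the other 16 arrays. Fshr signal was 8.35 to 9.16 in wild type and 9.14 to 9.92 in Lhr-null, against 11.12 to 11.88 in Fshr-CAM and 11.41 to 11.72 on 4 Fshr-CAM/Lhr-null arrays. The library labelled Fshr-CAM/Lhr-null replicate 4 was at 9.73, within the Lhr-null range, which goes against its label. The Lhr gene itself, Lhcgr, had no kept probe and was not analysed here. Of the 3 Lhr-null arrays used, replicate 2 showed sperm markers at a mean log2 signal of 10.20 over 5 genes, and all 3 showed oviduct and cilia markers at 7.78 to 9.69 over 7 genes (at most 6.27 in the other groups). Luteal markers (7 measured of 9 listed, among them Akr1c18 and Star) averaged 8.85 to 11.08 per array where Lhr was intact and 6.49 to 7.25 where it was lost. Granulosa cell markers, 8 measured of 10, averaged 9.77 to 10.52 in wild type and 10.55 to 11.10 on the mutant arrays, without overlap. Theca and interstitial cell markers, 6 measured of 6, averaged 8.67 to 9.30 in wild type, 8.72 to 9.46 in Fshr-CAM, 9.04 to 9.68 in Lhr-null and 9.24 to 10.23 in the double mutant.

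Values are log2 signals after background correction and quantile normalisation, and a level of about 5 (4.87 to 5.05) is the lower edge of what the arrays detect. Each fold change is a difference of group means from a limma fit over all 12137 genes, given with its standard error (SE), and a gene is said to have risen or fallen where the Benjamini-Hochberg adjusted p over all genes was under 0.05. Levels of different genes are not compared, since probes differ in brightness. In whole ovaries, fewer cells of a type and less RNA per cell cannot be told apart.

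Transcripts along the pathway were lower in ovaries without Lhr. Against wild type, 13 of the 27 genes fell in Lhr-null ovaries and 1, Lbr, rose, where 6.9% of all genes tested fell and 5.5% rose. Of the 17 enzymes from mevalonate to cholesterol, the scaffold Erg28 counted among them, 11 fell and 1 rose. The median log2 change of the 27 genes was -0.81, beside 0.00 over all genes. The groups did not overlap for 13 genes that were lower and 1 that was higher, against 12.7% and 12.1% of all genes. In the 13 genes that fell the decrease ran from 1.48-fold for Npc1 to 9.02-fold for Dhcr7. On the map of all 27 genes, the columns of both genotypes without Lhr are blue for most enzymes and near white for the SREBP control genes.

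**Figure D1:**
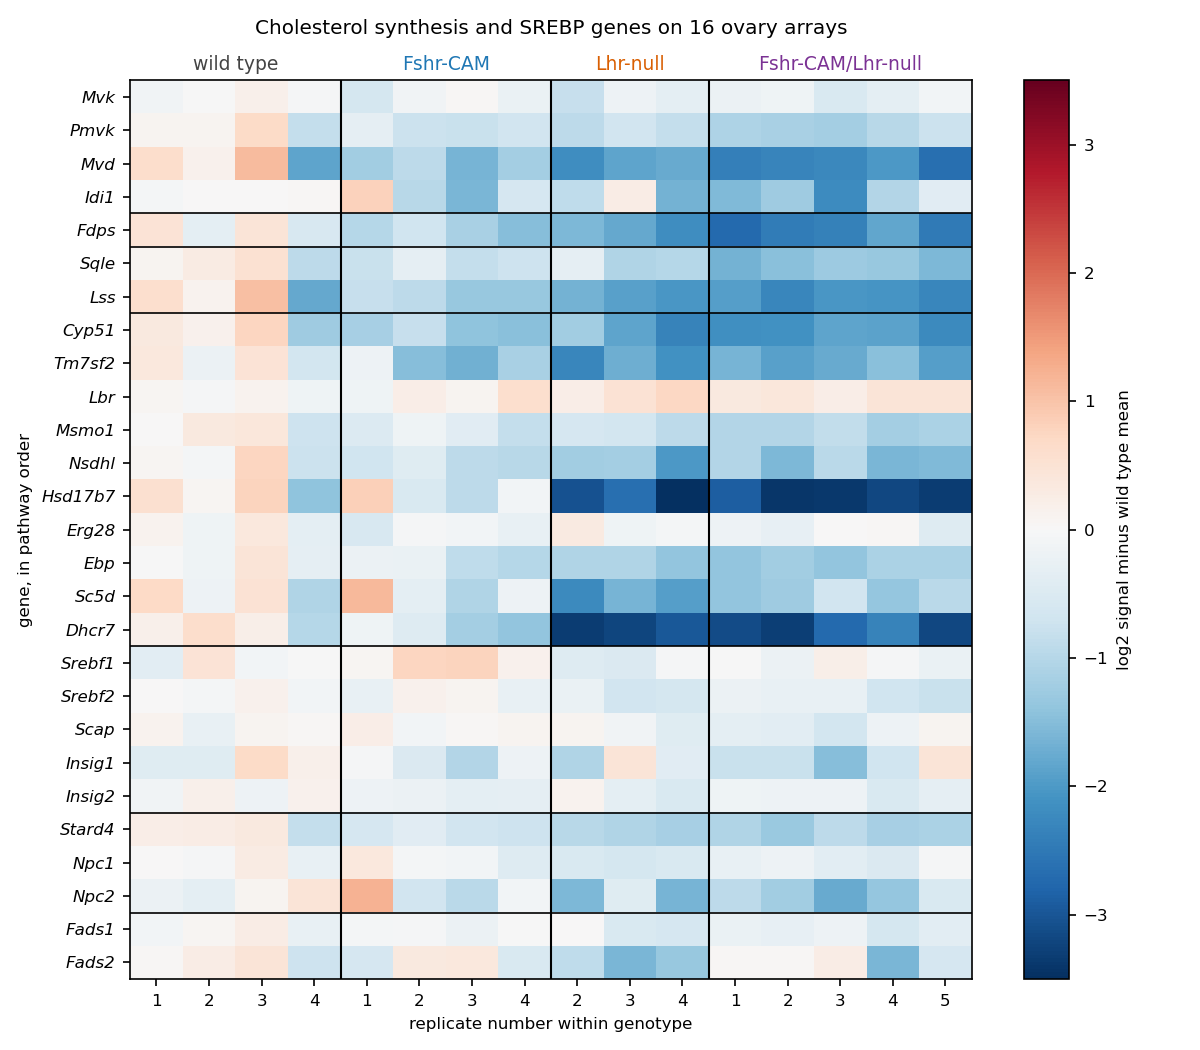
Log2 signal of 27 genes (rows, in pathway order, with lines between steps) on each of 16 arrays (columns, by genotype and replicate number), minus the gene's mean over the 4 wild type arrays. Dhcr7 and Hsd17b7 are the darkest rows on the arrays without Lhr, Lbr is pale red there, and wild type replicate 4 is bluer than the other wild type arrays for most enzymes.

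The pathway as measured starts at mevalonate kinase, Mvk, whose signal lay near the detection edge. It read 5.19, 5.30, 5.51 and 5.28 in wild type, 4.69, 5.20, 5.36 and 5.08 in Fshr-CAM, 4.52, 5.15 and 4.97 in Lhr-null and 5.13, 5.16, 4.79, 4.98 and 5.22 in Fshr-CAM/Lhr-null. It was detected on all 4 wild type arrays, 3 of 4 with Fshr-CAM, 2 of 3 Lhr-null arrays and 3 of 5 of the double mutant, and passed no test. Phosphomevalonate kinase, Pmvk, read 7.72, 7.72, 8.29 and 6.78 in wild type, 7.33, 6.88, 6.86 and 6.97 in Fshr-CAM, 6.71, 6.95 and 6.80 in Lhr-null and 6.55, 6.49, 6.44, 6.66 and 6.87 in Fshr-CAM/Lhr-null. Wild type replicate 4 lay with the mutant arrays, and the other wild type arrays were above all of them. Pmvk fell by 1.03 in Fshr-CAM/Lhr-null against wild type (SE 0.23, limma adjusted p 0.00967), and its change of -0.81 in Lhr-null had an adjusted p of 0.0511. The Lhr-null change passed without wild type replicate 4 or without Fshr-CAM replicate 1. It also passed with the authors' quantile-normalised table, a stricter detection filter, the mean of each gene's probes or array weights, and in no other alternative fit.

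Mvd, the decarboxylase that turns mevalonate diphosphate into isopentenyl diphosphate, carried the largest change of this first stretch. Its log2 signals were 9.94, 9.47, 10.43 and 7.47 in wild type and 8.11, 8.40, 7.70 and 8.14 in Fshr-CAM. They were 7.15, 7.48 and 7.55 in Lhr-null and 6.93, 7.02, 7.07, 7.33 and 6.70 in Fshr-CAM/Lhr-null. Replicates 1 to 3 of wild type stood above every mutant array, and replicate 4 lay inside the Lhr-null range. Mvd fell by 1.93 in Lhr-null against wild type, 3.82-fold (SE 0.47, limma adjusted p 0.0145), and without wild type replicate 4 it fell by 2.55 (adjusted p 1.96e-05). With both Lhr-null replicate 2 and the library labelled Fshr-CAM/Lhr-null replicate 4 left out, the call was lost at an adjusted p of 0.0527. It was also lost in a fit of only the arrays compared. Idi1, which isomerises isopentenyl diphosphate, was at 7.03, 7.09, 7.08 and 7.12 in wild type, 7.88, 6.12, 5.48 and 6.50 in Fshr-CAM, 6.20, 7.34 and 5.44 in Lhr-null and 5.55, 5.84, 4.87, 6.05 and 6.69 in Fshr-CAM/Lhr-null. The wild type arrays lay close together for Idi1 while the Fshr-CAM and Lhr-null arrays ranged from below to above them, and no comparison passed the test. Without Fshr-CAM replicate 1, Idi1 passed as lower in the double mutant against wild type (adjusted p 0.036). It also passed there in a fit of only the arrays compared and with array weights, a fit that also dropped the mean-variance trend.

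Fdps makes farnesyl diphosphate, the branch point to squalene, dolichol, ubiquinone and prenylated proteins. It gave the clearest order of genotypes, with log2 signals of 13.96, 13.15, 13.94 and 12.92 in wild type and 12.48, 12.80, 12.35 and 12.00 in Fshr-CAM. The Lhr-null arrays followed at 11.92, 11.69 and 11.31 and the Fshr-CAM/Lhr-null arrays at 10.76, 11.05, 11.13, 11.67 and 11.02. Every wild type array lay above every Fshr-CAM array, and every Fshr-CAM array above every array without Lhr, while both ranges without Lhr overlapped. Fdps fell 3.61-fold in Lhr-null (log2 -1.85, SE 0.27, limma adjusted p 0.000441) and 5.16-fold in Fshr-CAM/Lhr-null (-2.37, SE 0.23, adjusted p 2.31e-05) against wild type. It also fell in Fshr-CAM/Lhr-null against Fshr-CAM (-1.28, SE 0.23, adjusted p 0.00705), although with all 17 arrays that adjusted p was 0.0927. In Fshr-CAM against wild type the difference of -1.08 had an adjusted p of 0.126.

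Squalene epoxidase, Sqle, adds the oxygen that later becomes the hydroxyl group of cholesterol. Its signal was 11.46, 11.64, 11.91 and 10.46 in wild type, 10.60, 11.06, 10.53 and 10.64 in Fshr-CAM, 11.04, 10.33 and 10.37 in Lhr-null and 9.73, 9.91, 10.09, 10.03 and 9.80 in Fshr-CAM/Lhr-null. Sqle was lowest in the double mutant, whose arrays lay below every other array, where it fell by 1.46 against wild type (SE 0.23, limma adjusted p 0.00107). In Lhr-null the change of -0.79 (adjusted p 0.0626) did not pass, and it passed without wild type replicate 4 (-1.09, adjusted p 0.00217), without Lhr-null replicate 2 (-1.02, adjusted p 0.0355) and with all 17 arrays. Lss, lanosterol synthase, folds squalene epoxide into the first sterol. It read 10.26, 9.79, 10.72 and 7.88 in wild type, 8.87, 8.74, 8.33 and 8.34 in Fshr-CAM, 8.01, 7.76 and 7.63 in Lhr-null and 7.72, 7.37, 7.63, 7.60 and 7.39 in Fshr-CAM/Lhr-null. As for Mvd, wild type replicate 4 sat with the Lhr-null arrays and the other 3 stood above all mutants. Lss fell 3.63-fold in Lhr-null (log2 -1.86, SE 0.44, adjusted p 0.0135) and 4.34-fold in Fshr-CAM/Lhr-null (-2.12, SE 0.39, adjusted p 0.00304). The fall in Lhr-null had an adjusted p of 0.0515 without Lhr-null replicate 4. That fall also did not pass in a fit of only the arrays compared. A second Lss probe, near background, showed a change of 0.15 in Lhr-null.

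Cyp51 begins the conversion of lanosterol to cholesterol by removing a methyl group. Its log2 signal was 10.71, 10.53, 11.12 and 9.13 in wild type, 9.22, 9.58, 8.96 and 8.90 in Fshr-CAM, 9.16, 8.52 and 8.04 in Lhr-null and 8.24, 8.26, 8.52, 8.50 and 8.15 in Fshr-CAM/Lhr-null. Replicates 1 to 3 of wild type stood apart at the top, and replicate 4 overlapped both Fshr-CAM and Lhr-null. Cyp51 fell 3.48-fold in Lhr-null (log2 -1.80, SE 0.36, limma adjusted p 0.0045) and 4.11-fold in Fshr-CAM/Lhr-null (-2.04, SE 0.31, adjusted p 0.000782). These calls held in every alternative fit.

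The next step, reduction of the sterol double bond left by Cyp51, can be carried out by Tm7sf2 or by Lbr, and these enzymes moved in opposite directions. Tm7sf2 read 7.95, 7.37, 8.05 and 6.94 in wild type, 7.39, 6.09, 5.90 and 6.44 in Fshr-CAM, 5.30, 5.86 and 5.46 in Lhr-null and 5.94, 5.68, 5.82, 6.11 and 5.64 in Fshr-CAM/Lhr-null. No array without Lhr reached the lowest wild type array. Tm7sf2 fell 4.11-fold in Lhr-null (log2 -2.04, SE 0.32, limma adjusted p 0.000913) and 3.34-fold in Fshr-CAM/Lhr-null (-1.74, SE 0.28, adjusted p 0.00114). Lbr is also a receptor of the nuclear lamina. It read 9.89, 9.76, 9.94 and 9.65 in wild type, 9.66, 10.04, 9.92 and 10.39 in Fshr-CAM, 10.03, 10.33 and 10.54 in Lhr-null and 10.15, 10.21, 10.05, 10.27 and 10.26 in Fshr-CAM/Lhr-null. All arrays without Lhr lay above all wild type arrays, by a small margin. Lbr rose 1.4-fold in Lhr-null (log2 0.49, SE 0.15, adjusted p 0.0431), and its change of 0.38 in Fshr-CAM/Lhr-null had an adjusted p of 0.0823. The rise was a marginal call: it was lost in 16 of 26 alternative fits, at an adjusted p of 0.18 without Lhr-null replicate 4, and a second Lbr probe showed 0.09.

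Msmo1 and Nsdhl take the remaining methyl groups off the sterol ring, and Erg28 is known as a scaffold that holds these enzymes together. Msmo1 read 12.11, 12.45, 12.49 and 11.38 in wild type, 11.62, 11.97, 11.70 and 11.27 in Fshr-CAM, 11.51, 11.45 and 11.19 in Lhr-null and 11.09, 11.08, 11.25, 10.91 and 11.00 in Fshr-CAM/Lhr-null. It fell by 1.04 in Fshr-CAM/Lhr-null (SE 0.19, limma adjusted p 0.00275), with all arrays below wild type. Its fall of 0.72 in Lhr-null (SE 0.22, adjusted p 0.0401) overlapped with wild type replicate 4 and was lost in 11 of 26 alternative fits. That included leaving out any of wild type replicates 1 to 3 (0.0699, 0.115 and 0.0951) or Lhr-null replicates 2 to 4 (0.0627, 0.073 and 0.138), given as adjusted p.

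Nsdhl showed 8.73, 8.60, 9.42 and 7.90 in wild type, 7.96, 8.23, 7.75 and 7.70 in Fshr-CAM, 7.45, 7.46 and 6.66 in Lhr-null and 7.64, 7.08, 7.70, 7.06 and 7.13 in Fshr-CAM/Lhr-null. The arrays without Lhr were all below the wild type arrays. Nsdhl fell 2.77-fold in Lhr-null (log2 -1.47, SE 0.30, limma adjusted p 0.00525) and 2.53-fold in Fshr-CAM/Lhr-null (-1.34, SE 0.26, adjusted p 0.00493). Erg28 was at 10.04, 9.77, 10.28 and 9.57 in wild type, 9.35, 9.88, 9.82 and 9.64 in Fshr-CAM, 10.22, 9.78 and 9.85 in Lhr-null and 9.75, 9.63, 9.93, 9.96 and 9.46 in Fshr-CAM/Lhr-null. For the probe used its groups overlapped throughout, and its difference of 0.033 in Lhr-null had a 95% confidence interval of -0.35 to 0.42. The other kept Erg28 probes showed -0.24 and -0.24 in Lhr-null (limma adjusted p 0.423 and 0.328). In Fshr-CAM/Lhr-null they differed from wild type by -0.43 and -0.54 (adjusted p 0.089 and 0.0178), so the latter passed. Median centring also called Erg28 lower in the double mutant against wild type.

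Hsd17b7 completes the removal of methyl groups by reducing the keto-sterol, and in rodents the same protein is known as a luteal enzyme that converts oestrone to oestradiol. Its log2 signal was 14.34, 13.84, 14.54 and 12.34 in wild type and 14.58, 13.22, 12.85 and 13.68 in Fshr-CAM. Without Lhr it was 10.72, 11.13 and 10.21 in Lhr-null and 10.89, 10.37, 10.38, 10.58 and 10.46 in Fshr-CAM/Lhr-null. The lowest array with Lhr was more than 1 log2 unit above the highest without it, and wild type and Fshr-CAM overlapped. Hsd17b7 fell 8.43-fold in Lhr-null against wild type (log2 -3.08, SE 0.45, limma adjusted p 0.000469). It fell 8.27-fold in Fshr-CAM/Lhr-null against Fshr-CAM (-3.05, SE 0.39, adjusted p 0.000448), while Fshr-CAM differed from wild type by -0.18 (95% interval -1.06 to 0.70). In the deposited signals, before any correction, the same probe read 6276 to 24588 in wild type and 1155 to 2460 on Lhr-null replicates 2 to 4.

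Ebp shifts the double bond of the sterol ring, and Sc5d introduces another. Ebp read 10.45, 10.32, 10.91 and 10.16 in wild type, 10.26, 10.23, 9.56 and 9.46 in Fshr-CAM, 9.41, 9.39 and 9.06 in Lhr-null and 9.09, 9.25, 9.08, 9.36 and 9.35 in Fshr-CAM/Lhr-null. All arrays without Lhr lay below all arrays with it, and the fall against wild type was 2.25-fold in Lhr-null (log2 -1.17, SE 0.20, limma adjusted p 0.00199) and 2.35-fold in Fshr-CAM/Lhr-null (-1.23, SE 0.18, adjusted p 0.000478). Sc5d was at 8.69, 7.81, 8.50 and 6.93 in wild type, 9.13, 7.65, 6.92 and 7.81 in Fshr-CAM, 5.75, 6.37 and 6.06 in Lhr-null and 6.61, 6.75, 7.33, 6.62 and 7.04 in Fshr-CAM/Lhr-null. It was lowest in Lhr-null, whose arrays lay below those of every other genotype, and fell there 3.8-fold (log2 -1.93, SE 0.45, adjusted p 0.0111). The Fshr-CAM/Lhr-null arrays stood 0.81 above Lhr-null for Sc5d (SE 0.43), which did not pass at an adjusted p of 0.44. Against wild type the double mutant differed by -1.11 (adjusted p 0.0863), which passed without wild type replicate 4 (adjusted p 0.0278) or Fshr-CAM replicate 1 (adjusted p 0.032).

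Dhcr7, the reductase of the last double bond on the route through dehydrocholesterol, stood with Hsd17b7 at the head of the falls in Lhr-null, and the order of these genes lay within their errors and reversed with all 17 arrays (-3.18 for Dhcr7 and -3.41 for Hsd17b7). It read 10.00, 10.46, 10.05 and 8.82 in wild type and 9.68, 9.39, 8.66 and 8.45 in Fshr-CAM, against 6.51, 6.62 and 6.86 in Lhr-null and 6.71, 6.55, 7.12, 7.51 and 6.65 in Fshr-CAM/Lhr-null. No array without Lhr reached the lowest array with it. Dhcr7 fell 9.02-fold in Lhr-null (log2 -3.17, SE 0.36, limma adjusted p 6.5e-05) and 7.62-fold in Fshr-CAM/Lhr-null (-2.93, SE 0.31, adjusted p 4.34e-05) against wild type, and 4.4-fold in Fshr-CAM/Lhr-null against Fshr-CAM (adjusted p 0.00138).

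**Figure D2:**
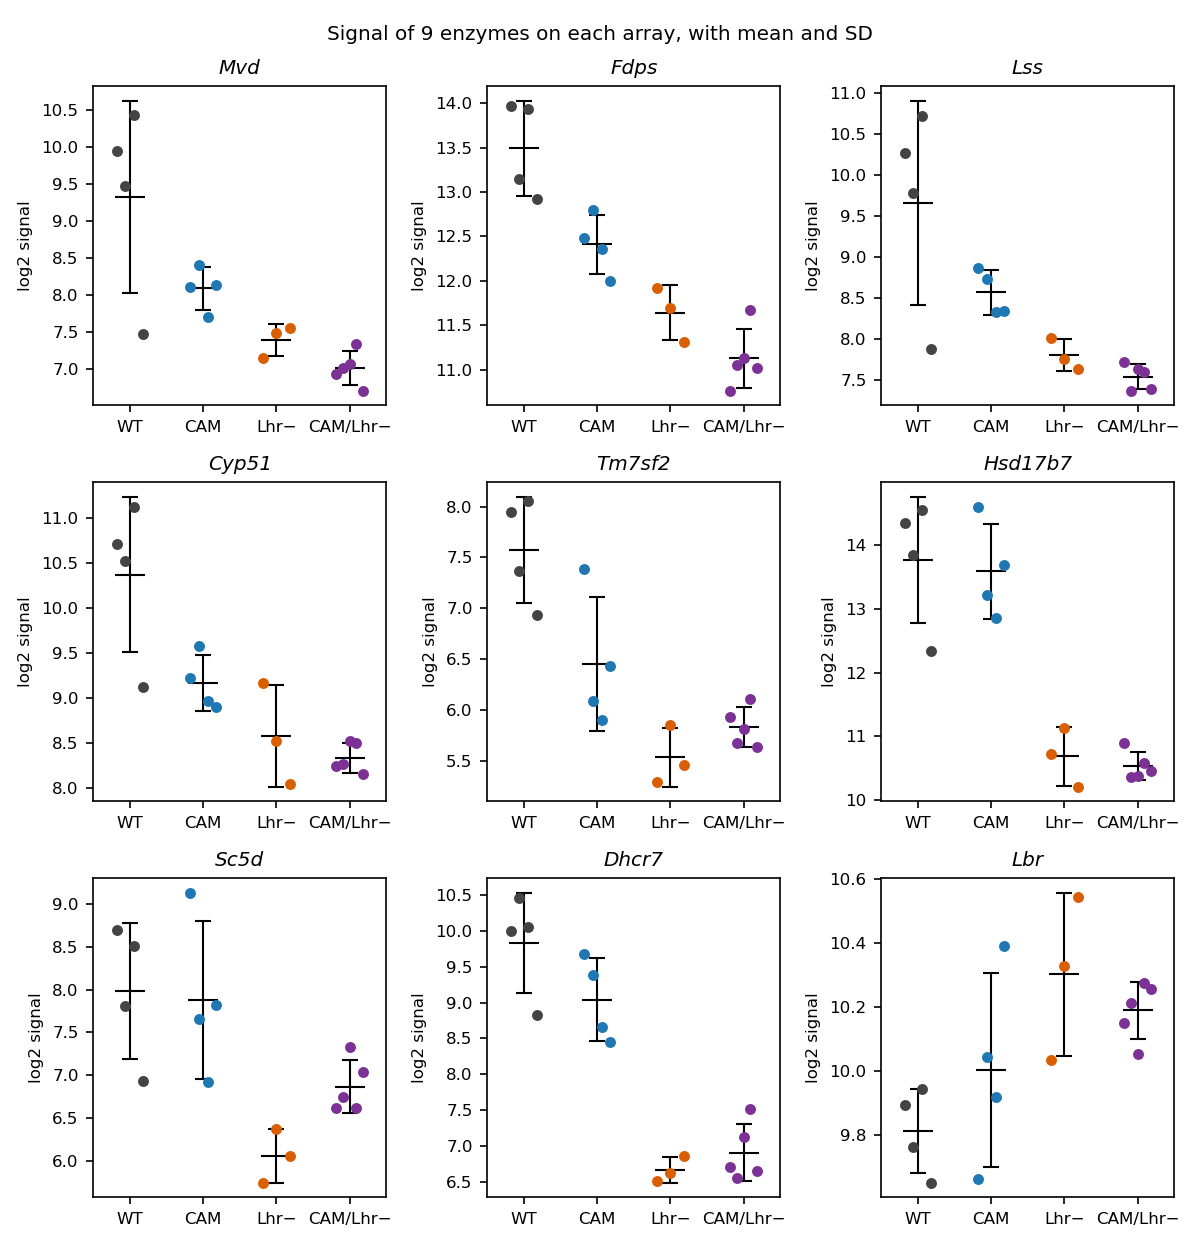
Log2 signal (vertical axes, each with its own range) of 9 pathway enzymes on every array of wild type (WT, 4 arrays), Fshr-CAM (CAM, 4), Lhr-null (Lhr−, 3) and Fshr-CAM/Lhr-null (CAM/Lhr−, 5); dots are arrays in replicate order, bars the mean and SD. For Mvd, Fdps, Lss and Cyp51 the Fshr-CAM mean lies between wild type and the arrays without Lhr, Hsd17b7 and Dhcr7 drop mainly where Lhr is lost, and Lbr goes the other way.

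The SREBP factors and the proteins that hold or escort them came next. Of these 5 genes, 0 passed the main limma fit over the 16 arrays in any of the 6 comparisons, with at most 3 at an unadjusted p under 0.05 in any of them. These 3 were lower in Fshr-CAM/Lhr-null against Fshr-CAM, where 974 of all 12137 genes were lower at that p. Srebf2, the factor chiefly linked to cholesterol genes, was at 8.13, 8.05, 8.26 and 8.01 in wild type, 7.86, 8.26, 8.20 and 7.86 in Fshr-CAM, 7.88, 7.45 and 7.49 in Lhr-null and 7.90, 7.85, 7.86, 7.43 and 7.32 in Fshr-CAM/Lhr-null. All arrays without Lhr lay below all wild type arrays, by -0.51 in the mean for Lhr-null (adjusted p 0.0678) and -0.44 for Fshr-CAM/Lhr-null (adjusted p 0.084). Without Lhr-null replicate 2 the Lhr-null difference was -0.65 and passed, at an adjusted p of 0.0446. It passed too with the library labelled Fshr-CAM/Lhr-null replicate 4 also left out (adjusted p 0.0375), with median centring, with the mean of its probes and with array weights. The other alternative fits did not call it. Median centring alone called Srebf2 lower in the double mutant, against wild type and against Fshr-CAM.

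Srebf1, linked more to fatty acid genes, read 5.75, 6.59, 6.04 and 6.12 in wild type, 6.19, 6.88, 6.90 and 6.27 in Fshr-CAM, 5.67, 5.62 and 6.07 in Lhr-null and 6.10, 5.93, 6.33, 6.08 and 5.90 in Fshr-CAM/Lhr-null. The Fshr-CAM arrays lay above the Lhr-null arrays for Srebf1, and each mutant genotype overlapped with wild type. Scap ranged from 8.92 to 9.80 over all 16 arrays, and its other probe differed in sign (0.24 in Lhr-null, against -0.15). Insig1, itself an SREBP target, read 8.58, 8.56, 9.68 and 9.17 in wild type, 8.97, 8.50, 7.96 and 8.82 in Fshr-CAM, 7.95, 9.44 and 8.61 in Lhr-null and 8.23, 8.21, 7.51, 8.29 and 9.45 in Fshr-CAM/Lhr-null. Its arrays spread more within each genotype than the group means differed from each other. The probe used differed from wild type by -0.33 in Lhr-null and -0.66 in Fshr-CAM/Lhr-null. The other kept Insig1 probes showed larger changes, -0.81 and -0.69 in Lhr-null (limma adjusted p 0.191 and 0.301). In Fshr-CAM/Lhr-null they showed -0.97 and -0.96 (adjusted p 0.0872 and 0.107), and they passed no test. The Insig2 probe used stayed between 8.55 and 9.24 on every array, and differed from wild type by -0.25 in Lhr-null (95% interval -0.56 to 0.063). With Lhr-null replicate 2 and the library labelled Fshr-CAM/Lhr-null replicate 4 left out, that difference was -0.43 and passed (adjusted p 0.0409). The other kept Insig2 probe showed larger changes against wild type, -0.49 in Lhr-null and -0.88 in Fshr-CAM/Lhr-null (limma adjusted p 0.441 and 0.101). With the mean of its probes Insig2 passed as lower in the double mutant.

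Among the sterol carriers, Stard4, which moves cholesterol between membranes and is an SREBP target, also fell. It read 9.58, 9.60, 9.70 and 8.53 in wild type, 8.77, 8.95, 8.69 and 8.63 in Fshr-CAM, 8.37, 8.30 and 8.18 in Lhr-null and 8.30, 8.05, 8.42, 8.20 and 8.25 in Fshr-CAM/Lhr-null. All arrays without Lhr lay below all arrays with it, and wild type replicate 4 lay below the Fshr-CAM arrays. Stard4 fell 2.09-fold in Lhr-null (log2 -1.07, SE 0.21, limma adjusted p 0.00477) and 2.16-fold in Fshr-CAM/Lhr-null (-1.11, SE 0.19, adjusted p 0.00163). The Lhr-null call was lost in a fit of only the arrays compared. Npc1 and Npc2 together export cholesterol from lysosomes. Npc1 was at 11.54, 11.48, 11.82 and 11.28 in wild type, 11.90, 11.45, 11.44 and 11.08 in Fshr-CAM, 10.99, 10.91 and 11.00 in Lhr-null and 11.26, 11.36, 11.16, 11.04 and 11.49 in Fshr-CAM/Lhr-null, and fell 1.48-fold in Lhr-null (adjusted p 0.0332). That call was lost without any of wild type replicates 1 to 3 (adjusted p 0.0623, 0.0636 and 0.0815) or Lhr-null replicates 2 to 4 (0.0688, 0.0892 and 0.0776). It was also lost with the mean of its probes, and without both Lhr-null replicate 2 and the library labelled Fshr-CAM/Lhr-null replicate 4. The other kept Npc1 probes showed -0.53, -0.52 and -0.17 in Lhr-null (limma adjusted p 0.457, 0.181 and 0.638). Npc2 spread from 9.51 to 11.67 within Fshr-CAM and passed no test over the 16 arrays, with -1.21 in Lhr-null (adjusted p 0.0791). It passed as lower in Lhr-null without Lhr-null replicate 3 (-1.61, adjusted p 0.0402) or without Fshr-CAM replicate 1 (adjusted p 0.0231), and the latter also gave a pass in the double mutant (adjusted p 0.0169), as did array weights and a fit of only the arrays compared.

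The desaturases Fads1 and Fads2, which make long polyunsaturated fatty acids and are SREBP targets, passed no test over the 16 arrays. Fads1 stayed between 12.41 and 13.30 on all arrays. Its difference of -0.37 in Lhr-null (adjusted p 0.113) passed without Lhr-null replicate 2 (-0.55, adjusted p 0.0222) and, with the library labelled Fshr-CAM/Lhr-null replicate 4 left out too (-0.56, adjusted p 0.0108), as it did with median centring and with array weights. Fads2 was at 8.09, 8.30, 8.49 and 7.32 in wild type, 7.47, 8.39, 8.43 and 7.52 in Fshr-CAM, 7.17, 6.45 and 6.74 in Lhr-null and 8.10, 8.10, 8.32, 6.46 and 7.47 in Fshr-CAM/Lhr-null. All 3 Lhr-null arrays lay below all wild type arrays, with a difference of -1.26 (adjusted p 0.0542) that passed without wild type replicate 4 (-1.51, adjusted p 0.0307), without Fshr-CAM replicate 1 (adjusted p 0.0496) or without the library labelled Fshr-CAM/Lhr-null replicate 4 (adjusted p 0.0178). With the replicate number as a block it was -1.27 and passed as well (adjusted p 0.0302), and 11 of 26 alternative fits called it in all. In the double mutant that library, whose Fshr signal goes against its label, was the lowest of the 5 for Fads2.

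**Figure D3:**
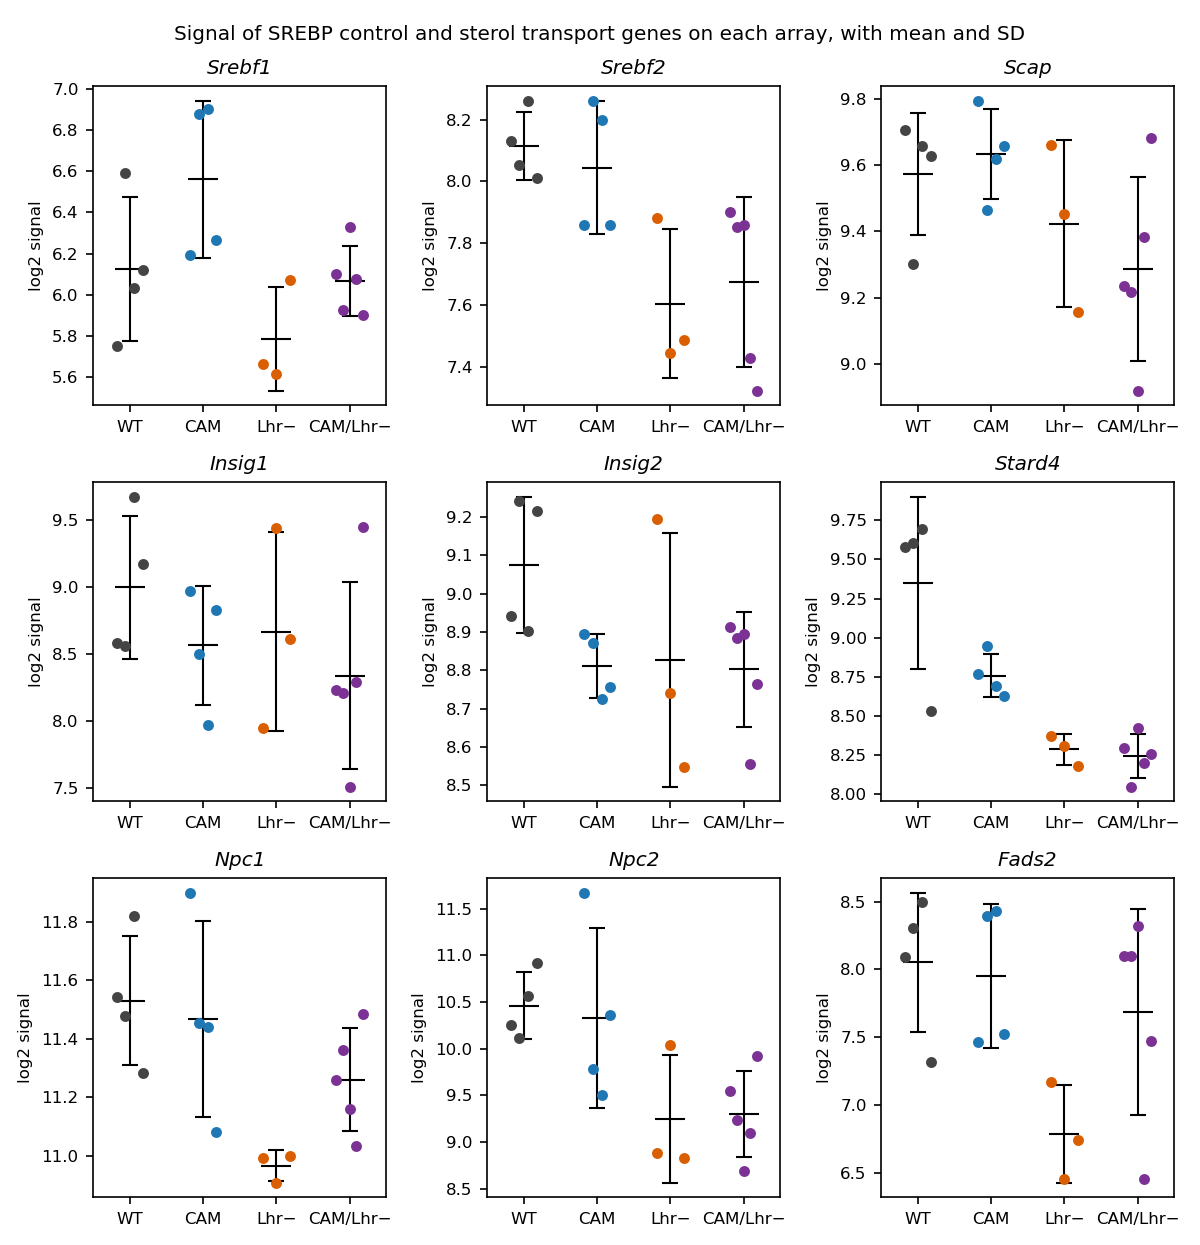
Log2 signal (vertical axes, each with its own range) of SREBP control genes, sterol carriers and Fads2 on every array, with dots in replicate order and bars for the mean and SD of wild type (WT, 4 arrays), Fshr-CAM (CAM, 4), Lhr-null (Lhr−, 3) and Fshr-CAM/Lhr-null (CAM/Lhr−, 5). Stard4 drops on every array without Lhr, the Srebf2 means without Lhr lie below wild type by less than 1, and Insig1 varies within genotypes by as much as between them.

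The mutant Fshr alone was compared with wild type to see its effect where Lhr is present. In Fshr-CAM ovaries 0 of the 27 genes passed in either direction by limma, where 0.033% of all genes fell and 0.173% rose. All the same 24 of the 27 log2 changes were below 0, with a median of -0.43 (0.00 over all genes), and 12 had an unadjusted p under 0.05, all of them lower (336 lower and 399 higher of all 12137 genes). The groups did not overlap for 2 of the 27 genes, Fdps and Insig2, both lower in Fshr-CAM (1.42% of all genes were lower and 2.06% higher without overlap). The count of genes past the test turned on a single library. Without wild type replicate 4, 7 of the 27 passed, all lower, beside 19 lower and 21 higher of all 12064 genes: Mvd (-1.86, adjusted p 0.00177), Lss (-1.69, 0.00177), Cyp51 (-1.62, 0.00585), Fdps (-1.28, 0.0402), Sqle (-0.97, 0.0313), Pmvk (-0.90, 0.0481) and Stard4 (-0.87, 0.00327). Without Fshr-CAM replicate 1, only Tm7sf2 passed (-1.43, adjusted p 0.0335). Hsd17b7 (-0.18) and Sc5d (-0.10) were among the enzymes that differed least in Fshr-CAM.

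Wild type replicate 4 was the lowest wild type array for 15 of the 17 enzymes and 20 of the 27 genes. It exceeded every array without Lhr for 7 of the 17 enzymes, against 13, 14 and 15 for replicates 1, 2 and 3. The mean log2 signal of the 17 enzymes was 9.91, 9.71, 10.19 and 8.87 on the 4 wild type arrays and 9.34, 9.15, 8.74 and 8.91 on the Fshr-CAM arrays. It was 8.33, 8.45 and 8.12 on the Lhr-null arrays and 8.15, 8.10, 8.19, 8.31 and 8.17 on the Fshr-CAM/Lhr-null arrays. Replicate 4 thus lay within the Fshr-CAM range. Its luteal marker mean was 10.50, between 9.70 and 11.08 for the other wild type arrays, so this array was low for the enzymes and not for the luteal markers. Fshr-CAM replicate 1 stood highest of its group for Hsd17b7, Sc5d, Npc2, Idi1 and Tm7sf2.

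**Figure D4:**
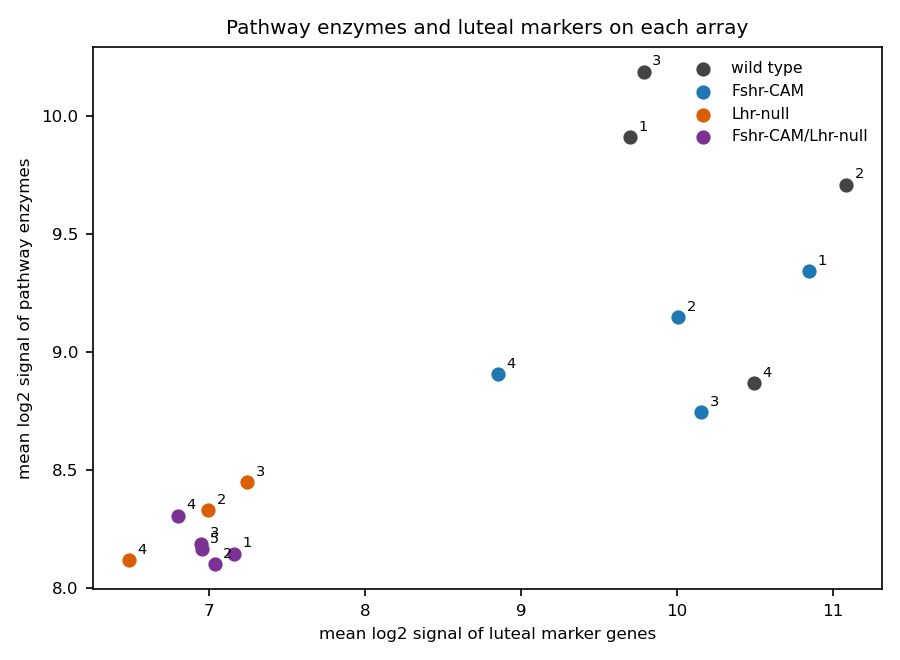
Mean log2 signal of the 17 pathway enzymes (vertical axis) against the mean log2 signal of 7 luteal marker genes (horizontal axis) on each of 16 arrays, labelled by replicate number. The 8 arrays without Lhr lie together at the lower left, and the wild type and Fshr-CAM arrays share a range of luteal markers while 3 of the 4 wild type arrays lie above all Fshr-CAM arrays for the enzymes.

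The luteal marker levels and the enzymes moved together between genotypes with and without Lhr, and the part of the former in the latter was not tested. Of the 7 luteal markers, 6 fell in Lhr-null against wild type by limma, with a median log2 change of -3.66, and 0 changed in Fshr-CAM. Against wild type, 6.9% of all genes fell and 5.5% rose in Lhr-null. These shares were 5.68% and 4.49% in Fshr-CAM/Lhr-null and 0.033% and 0.173% in Fshr-CAM. Granulosa cell markers went the other way from the enzymes, while theca and interstitial cell markers were split in Lhr-null. By limma, 5 of the 8 granulosa cell markers rose and 0 fell in Lhr-null against wild type (median 0.78), 4 rose in Fshr-CAM/Lhr-null (median 0.77) and 2 rose in Fshr-CAM (median 0.41). Of the 6 theca and interstitial cell markers, 2 rose in Lhr-null (median 0.26) and 3 in Fshr-CAM/Lhr-null (median 0.75), with 0 falling past the test. By sign alone, 3 of the 6 were below 0 in Lhr-null, the lowest at -0.73, and 2 of the 6 in Fshr-CAM/Lhr-null. The part of these shifts in the enzyme values was not tested. Across those groups the arrays form separate clusters, so no correlation is given.

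In the double mutant, 13 of the 27 genes fell and 0 rose against wild type, where 5.68% of all genes fell and 4.49% rose, and the median log2 change was -1.11 (0.04 over all genes). The groups did not overlap for 15 genes that were lower and 1 that was higher, against 6.56% and 7.75% of all genes. Of the 13 that fell, 12 were enzymes, and the other was Stard4. This comparison and that of Lhr-null against wild type share the same wild type arrays, so their values are only set side by side: Dhcr7 -3.17 and -2.93, Hsd17b7 -3.08 and -3.23, Sc5d -1.93 and -1.11, Sqle -0.79 and -1.46. All 13 also fell without the library labelled Fshr-CAM/Lhr-null replicate 4, and 11 of them in every alternative fit; Pmvk and Msmo1 were lost with all 17 arrays. Without that library the counts that fell were 14 in Lhr-null against wild type, adding Fads2, and 3 in the double mutant against Fshr-CAM, where 7.42% and 1.41% of all genes fell in that fit.

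**Figure D5:**
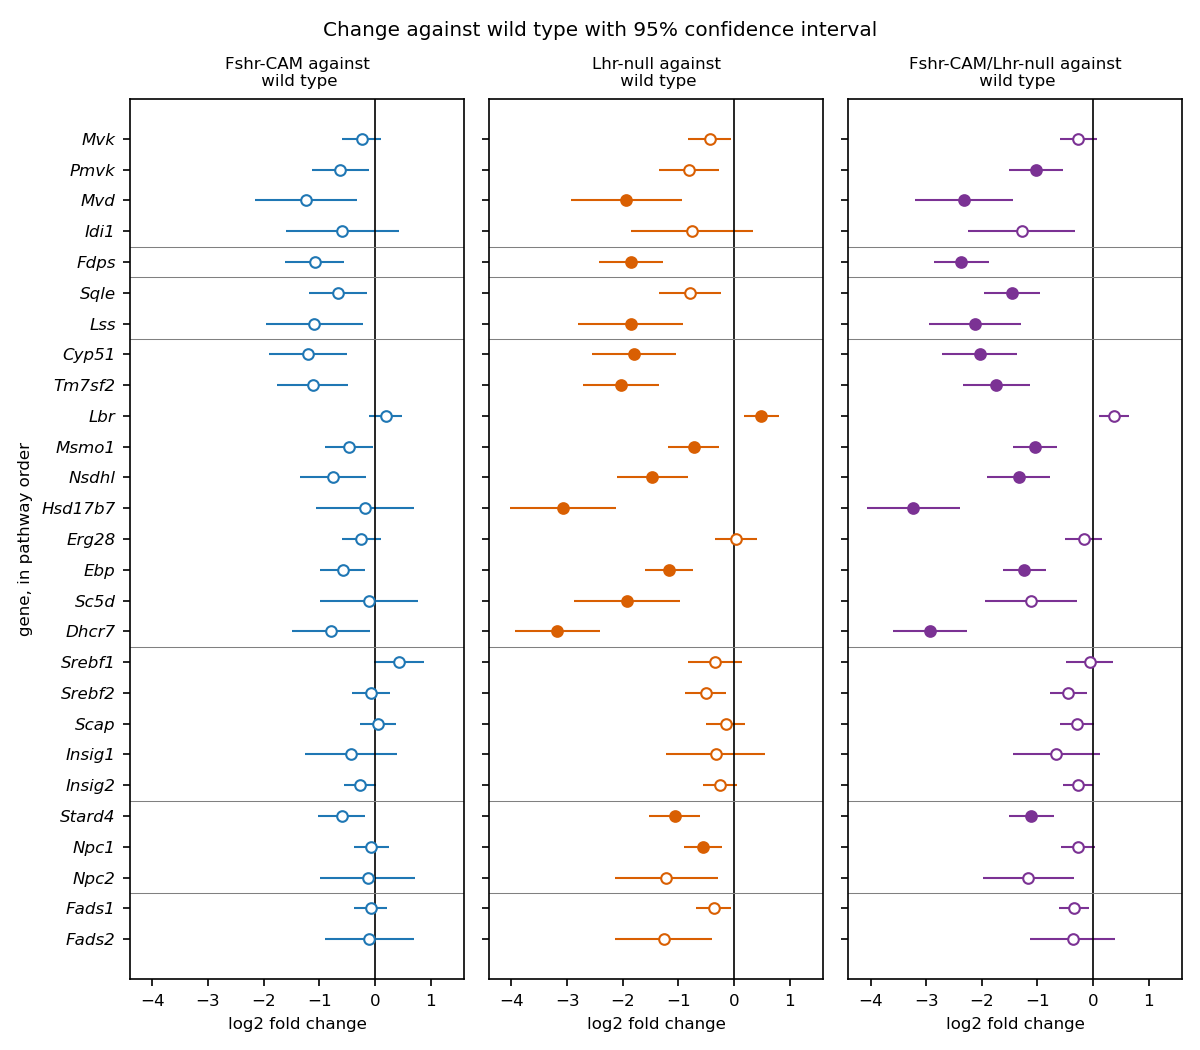
Log2 fold change (horizontal axis) of 27 genes (rows, in pathway order, with lines between steps) in each mutant genotype against wild type, from limma over 16 arrays. Lines are 95% confidence intervals, filled points have a Benjamini-Hochberg adjusted p under 0.05, and the 3 panels share the same wild type arrays; all filled points but Lbr lie below 0.

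The effect of the mutant Fshr where Lhr is lost was read from both genotypes without Lhr. In Fshr-CAM/Lhr-null against Lhr-null 0 of the 27 genes passed by limma, where 0.569% of all genes fell and 0.132% rose, and the median log2 change was -0.07. The groups did not overlap for 1 gene that was lower, Sqle, and 2 that were higher, Sc5d and Npc1, against 2.63% and 5.27% of all genes. At an unadjusted p under 0.05 there were 1 lower, Sqle (-0.67, adjusted p 0.278), and 1 higher, Fads2 (0.90, adjusted p 0.342). Of all 12137 genes, 682 were lower and 912 higher at that p. The 95% intervals were wide for several enzymes, -1.06 to 0.76 for Hsd17b7 and -1.34 to 0.57 for Mvd. The oviduct and sperm transcripts named above were high in these Lhr-null arrays, and their part in these values was not tested.

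Loss of Lhr where Fshr is mutant was read from Fshr-CAM/Lhr-null against Fshr-CAM. 3 of the 27 genes fell, Hsd17b7, Dhcr7 and Fdps, and 0 rose, where 1.66% of all genes fell and 0.445% rose. The median log2 change was -0.58 (0.02 over all genes), and 25 of 27 were below 0, as were 5609 of all 12137 genes. With no overlap between the groups, 10 of the 27 were lower and 0 higher (4.2% and 3.19% of all genes). Without wild type replicate 4, which enters this comparison through normalisation and the shared spread, 9 passed (1.97% of all genes fell in that fit), adding Mvd, Lss, Cyp51, Sqle, Msmo1 and Stard4.

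Whether the mutant Fshr acted differently with and without Lhr was tested by the interaction term. 0 of the 27 genes passed by limma in either direction, where 0.198% of all genes were called below 0 and 0% above it. The median was 0.35 (0.03 over all genes), and 23 of 27 were above 0, as were 6657 of all 12137 genes. Of the 27, 3 had an unadjusted p under 0.05, all above 0: Tm7sf2 (1.42, SE 0.43, adjusted p 0.329), Dhcr7 (1.04, adjusted p 0.676) and Nsdhl (0.88, adjusted p 0.676). Of all genes, 424 below 0 and 470 above it had such a p. Without wild type replicate 4, Stard4 passed (0.83, adjusted p 0.0484), 1 of 4 genes called above 0 in that fit. In the order of group means, Fshr-CAM lay between wild type and both genotypes without Lhr for 15 of the 17 enzymes, the exceptions being Lbr and Erg28, and the double mutant was lowest for 10 of the 17.

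Genes next to the pathway were read from 4 further lists, whose counts stand beside 6.9% of all genes that fell and 5.5% that rose in Lhr-null, and 5.68% and 4.49% in Fshr-CAM/Lhr-null, against wild type. Of 18 fatty acid synthesis genes measured of 19, 3 fell and 0 rose in Lhr-null: Acss2, which makes acetyl-CoA from acetate (-1.50, adjusted p 0.00238), Gpam, which starts glycerolipid synthesis (-0.82, adjusted p 0.0441), and Acly, which makes acetyl-CoA from citrate (-0.56, adjusted p 0.0485). In Fshr-CAM/Lhr-null against wild type 5 of the 18 fell and 1 rose, led by Acss2 (-1.65, adjusted p 0.00043), the stearoyl-CoA desaturase Scd1 (-1.45, adjusted p 0.00114) and Rdh11 (-0.90, adjusted p 0.0245). Scd1 also fell against Lhr-null (-1.53, adjusted p 0.00702). Adipocyte markers, 6 measured of 6, averaged 6.15 to 6.28 on the Lhr-null arrays used and at most 5.60 in the other groups, and their part in this difference was not tested.

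Of 12 genes of SREBP cleavage and sterol-regulated degradation measured of 14, 0 passed by limma in any comparison, with at most 2 at an unadjusted p under 0.05 in each and medians between -0.08 and 0.08. Of 16 genes of the isoprenoid branch measured of 18, 3 fell in Lhr-null, among them Rabggtb (-0.42, adjusted p 0.0273) and Zmpste24 (-0.41, adjusted p 0.0124), and 1 of 16 rose, a share near that of all genes: Fntb, a farnesyltransferase subunit (0.47, adjusted p 0.0317). In Fshr-CAM/Lhr-null against wild type 1 fell, Zmpste24 (-0.35, adjusted p 0.016), and 1 rose, Fntb (0.46, adjusted p 0.0206), both near the share of all genes. Of 11 oxysterol and LXR genes measured of 13, Ch25h, which makes an oxysterol that restrains SREBP processing, fell in Lhr-null (-1.85, adjusted p 0.00514), as did Hsd3b7 of bile acid synthesis (-0.54, adjusted p 0.0151). In the double mutant against wild type 1 fell, Hsd3b7 (-0.50, adjusted p 0.0125), and 1 rose. Cyp27a1, which hydroxylates the cholesterol side chain, rose in Fshr-CAM/Lhr-null against wild type (0.86, adjusted p 0.00838) and against Fshr-CAM (0.77, adjusted p 0.0389). In Fshr-CAM against wild type 0 genes of these 4 lists passed by limma, with 5 fatty acid synthesis genes and 2 oxysterol and LXR genes at an unadjusted p under 0.05. At that p, 336 of all 12137 genes were lower and 399 higher.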

How the data were processed

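Signal intensity per probe, bead counts and detection p-values were deposited without background subtraction, with a quantile-normalised table that equals the series value table; GenomeStudio 1.7.0 is named in the submitters' processing notes, and further steps are not given in the sources used here. The standard error over beads, a score deposited by the authors, was not used. The non-normalised signals were corrected with detection p-values, quantile-normalised and put on a log2 scale by neqc of limma 3.58.1 (R 4.3.3, offset 16); the authors' deposited table is not on a log2 scale. Of 45281 probes, the 23098 with detection p under 0.05 on at least 4 arrays were kept, and the brightest probe of each gene stood for it. A limma fit with 1 mean per genotype and a mean-variance trend ran over 12137 genes on 16 arrays, with Benjamini-Hochberg adjustment and a threshold of 0.05. The code was also run on simulated data with independent noise of equal spread on every array. That run does not test the fit where the spread differs between arrays.

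Symbols came from the platform annotation: 34885 probes had 1 symbol, 18 had several and 10378 had none. The genes, lists, tests and the omission of Lhr-null replicate 1 were chosen with earlier results of these data known. All 27 genes are named, and up to 3 genes per further list and comparison, by size of change past the threshold. Alternatives covered the arrays, normalisation, probe filter and choice, array weights (always fitted without the mean-variance trend) and a replicate block. Precision is limited by 3 to 5 arrays per genotype. Promoters are from RefSeq, GRCm38.p6.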

Additional observations from a re-analysis of the deposited data

Results flagged for a closer look

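Of 81 combinations of gene and genotype with at least 4 arrays, 1 had an array far from the rest of its group, where chance flags about 1 in 20. Stard4 on wild type replicate 4 had a log2 signal of 8.529, against 9.579 to 9.696 on the other wild type arrays, and the gap took up 0.9 of the group's range. The same array was the lowest wild type array for 15 of the 17 enzymes.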

How the results depend on the processing

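Counts of genes that fell or rose were recomputed under 26 alternatives. Except for median centring, the shares of all genes called in the same fits are not given beside the counts of this section. A higher or lower count is therefore not read as particular to the pathway. Leaving out 1 array at a time gave 0 to 7 lower in Fshr-CAM against wild type, 10 to 16 lower and 0 to 1 higher in Lhr-null against wild type, 3 to 9 lower in Fshr-CAM/Lhr-null against Fshr-CAM, 13 to 16 lower and 0 to 1 higher in Fshr-CAM/Lhr-null against wild type, and 0 to 1 higher for the interaction; the upper counts of 7 and 9 came without wild type replicate 4. Array weights, in a fit that also dropped the mean-variance trend, gave 3 lower in Fshr-CAM against wild type (Cyp51, Fdps and Tm7sf2), 6 lower in Fshr-CAM/Lhr-null against Fshr-CAM, 1 higher (Lbr) in Fshr-CAM/Lhr-null against wild type and 1 higher (Tm7sf2) for the interaction. Fitting only the arrays compared gave 7 lower in Fshr-CAM/Lhr-null against Fshr-CAM and 1 higher (Lbr) against wild type. In Lhr-null against wild type the same fit lost the calls of Mvd, Lss, Msmo1 and Stard4 and gained Fads2. The 1 gene that rose in Lhr-null, Lbr, became 0 with all 17 arrays, median centring, no detection filter, the mean of a gene's probes, the replicate block or only the arrays compared. Median centring without background correction gave 10 lower in Fshr-CAM/Lhr-null against Fshr-CAM, moved the median of all genes there from 0.02 to -0.12, and split all calls into 596 lower and 19 higher, against 202 and 54. Against wild type it gave 954 lower and 392 higher in Lhr-null (837 and 668 in the main setting) and 1109 lower and 127 higher in Fshr-CAM/Lhr-null (689 and 545). The cause of these shifts was not tested. No called gene changed sign in any alternative.

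With the replicate number as a block, 14 fell in Lhr-null (Fads2 was gained, at -1.27 and an adjusted p of 0.0302, and Lbr was lost), 13 in Fshr-CAM/Lhr-null against wild type and 3 against Fshr-CAM. The numbers showed no sign of pairing the arrays, which cannot show that the arrays were unpaired. Of 21 same-numbered pairs, 4 had a correlation of deviations above 0.1 (range -0.47 to 0.32), and 4 of 16 arrays correlated best with their own number. Different-numbered pairs ranged from -0.42 to 0.47. Signals near the detection edge, as for Mvk, limit what could be seen there.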
